A study of Mus musculus with 8 samples.

Results

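The genes described here are 8 markers of the cells of lymphangioleiomyomatosis and angiomyolipoma, the smooth-muscle-like tumors of tuberous sclerosis. These 8 are the melanocytic markers Gpnmb, Pmel, Mlana, Tyrp1, Dct and Trpm1, and the hormone receptor genes Esr1 and Pgr. They were taken by symbol from a table of 23993 genes measured by RNA sequencing in mouse thoracic aorta, and all 8 symbols had a row in it. Every mouse was a C57BL/6 male carrying Myh11-CreERT2, a Cre recombinase that tamoxifen activates in smooth muscle cells, and the mT/mG fluorescent reporter, and received tamoxifen at 1.5 weeks of age. In the controls Tsc1 was wild type (Tsc1+/+, n = 4), and in the knockouts both Tsc1 alleles were floxed (Tsc1fl/fl, Tsc1-/- after recombination, n = 4). Aortas were taken at 24 weeks. Cre acts only where Myh11 is expressed, so the other cells of the wall keep Tsc1. Although the labels name smooth muscle cells, their protocol has no sorting step, and the libraries also hold endothelial (Pecam1, 144 FPKM in controls), fibroblast (Dcn, 675 FPKM) and fat cell (Adipoq, 20.0 FPKM) transcripts beside Myh11 (1716 FPKM). FPKM, the unit throughout, is the number of fragments per kilobase of transcript, per 1000000 mapped fragments, and n = 4 per group in every mean ± SD.

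Tsc1 encodes a subunit of the complex that holds back the growth kinase mTORC1. Tumors that have lost TSC1 or TSC2 express genes of the pigment cell: PMEL, the amyloid protein that forms the fibrils of melanosomes, MLANA (MART-1), a small melanosomal membrane protein that helps PMEL mature, and the pigment enzymes of the tyrosinase family. Many of these genes are targets of MITF or its relatives TFE3 and TFEB, which mTORC1 helps to keep in the cytoplasm. GPNMB, a transmembrane glycoprotein related to PMEL, is another such target and is also expressed by macrophages. Oestrogen receptor alpha (ESR1) and progesterone receptor (PGR) mark the tumor cells in tissue sections.

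The melanocytic markers did not move together. Gpnmb rose 9.53 times in mean FPKM and Mlana rose 4.09 times from a much lower level. Pmel stayed near 0.2 FPKM in both groups, and Dct, Tyrp1 and Trpm1 rested on a handful of sequenced fragments in any library. Esr1 and Pgr were expressed at 2 to 5 FPKM in every aorta, and neither passed the test. Of the 8 genes, 4 reached the mean of 1 FPKM required for testing with limma (Benjamini-Hochberg adjusted p under 0.05 over all 12107 genes tested). Of these 4, 2 were called higher, beside 17.1% of all tested genes, and 0 lower, beside 15.0%. Since Mlana reached the minimum only through the knockouts, this count supports nothing by itself. At an unadjusted p under 0.05 limma gave 1 lower gene, Esr1.

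Between 11867 and 12083 genes reached 1 FPKM in a library. Tsc1 itself had 4.03, 4.82, 4.95 and 6.32 FPKM in control aortas 1 to 4 and 2.99, 3.58, 3.37 and 3.71 FPKM in knockouts 1 to 4. All knockouts lay below all controls (log2 difference -0.44, SE 0.12, limma adjusted p = 0.0190), and the call was lost within either of 2 sets of libraries considered alone (-0.49 to -0.39, adjusted p 0.0590 to 0.0807). These sets are the libraries numbered 1 and 3 and those numbered 2 and 4, which differed within both genotypes. Each set holds 2 controls and 2 knockouts, so a test within it has less power than the full fit. A call lost within a set does not by itself mean a smaller difference there. The labels give no reason for this split. For the 4 tested markers and for several related genes the differences are also given within each set.

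**Figure D1:**
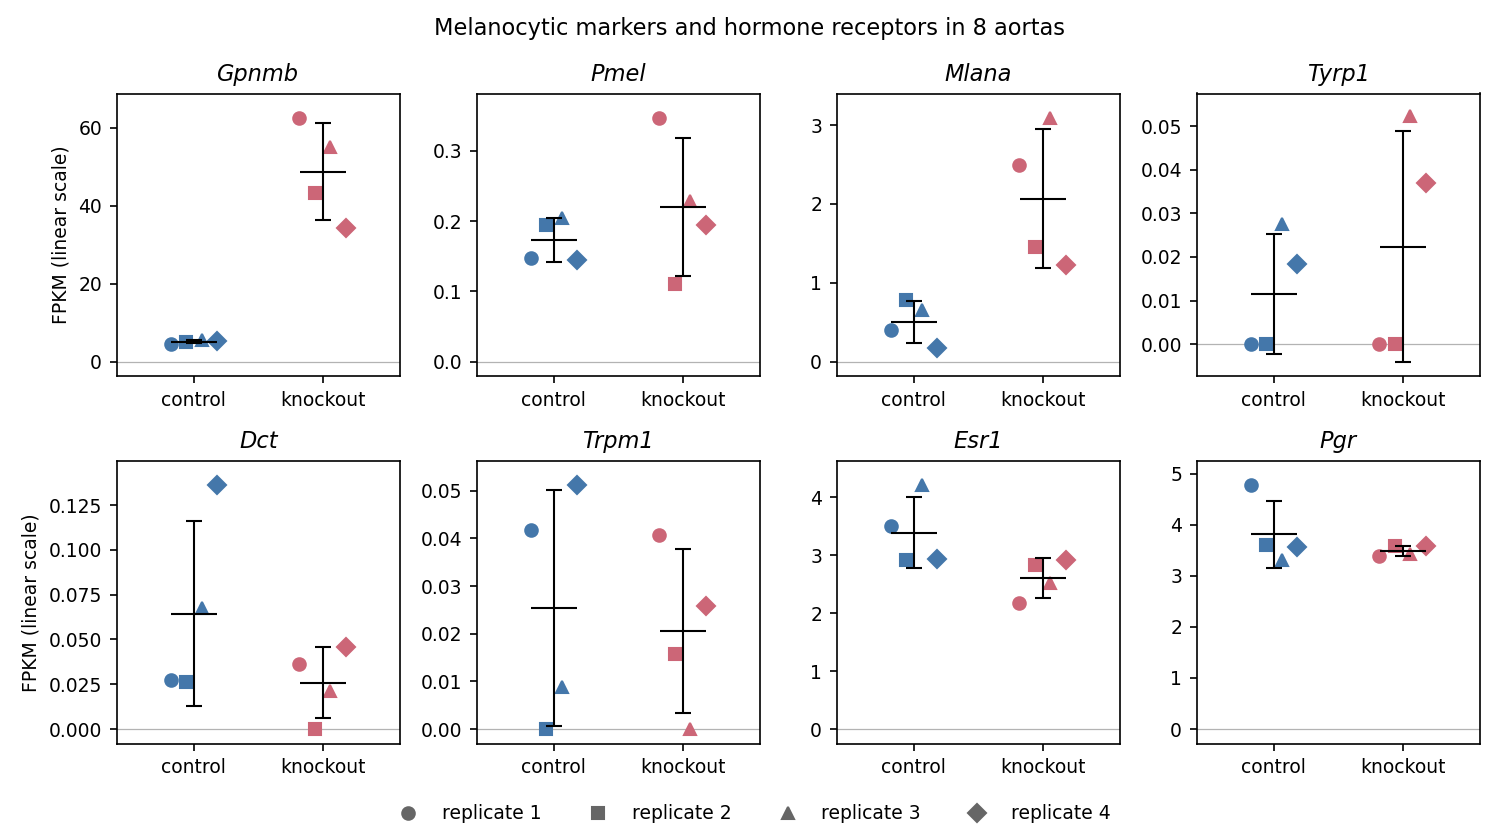
FPKM (linear axis, its own scale in each panel) of the 8 markers in 4 control and 4 knockout aortas, 1 symbol per library with the shape giving the replicate number, bar and whiskers for mean ± SD. The knockout libraries lie above the controls for Gpnmb and Mlana, just below them for Esr1, and among them for the other 5 genes.

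The upstream sequence of Gpnmb is shown with those of 3 markers that stayed at the floor, because the M-box, a motif of MITF and its relatives, was found near the starts of the latter. RefSeq promoter windows (GRCm38.p6, the assembly of mm10) ran from 250 bases before to 50 bases after a transcript start. Mlana and Pmel had none at hand and were not searched, and the other 6 of the 8 genes had 8 windows. The M-box, TCATGTG on either strand, occurred in 3 of these windows, 1 each of Tyrp1, Trpm1 and Dct, and in 3.77% of all 32851 windows. In the following 30-base stretches, read 5′ to 3′ on the gene's strand, capitals mark the M-box. They lie at chr4:80834154-80834183 (plus strand) for Tyrp1, at chr7:64153681-64153710 (plus strand) for Trpm1 and at chr14:118052380-118052409 (minus strand) for Dct.
Tyrp1: gtggggagggagTCATGTGctgcctagtag
Trpm1: cccaaatcctcaTCATGTGcccaccccaaa
Dct: gtgcacttagggTCATGTGctaacaaagag
The M-box began 47, 142 and 151 bases before the transcript starts used for the Tyrp1, Trpm1 and Dct windows. For Tyrp1 this start lies inside the gene's annotated span, which begins further upstream, so that its stretch falls within the gene. Dct held another on the opposite strand 232 bases before its start, and the window of a second Trpm1 start held the E-box CACGTG, found in 7.15% of all windows.

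The 250 bases before the Gpnmb start, chr6:49036268-49036517 (plus strand), held neither the M-box, nor its core CATGTG (14.2% of all windows), nor CACGTG, so nothing is capitalised.
Gpnmb: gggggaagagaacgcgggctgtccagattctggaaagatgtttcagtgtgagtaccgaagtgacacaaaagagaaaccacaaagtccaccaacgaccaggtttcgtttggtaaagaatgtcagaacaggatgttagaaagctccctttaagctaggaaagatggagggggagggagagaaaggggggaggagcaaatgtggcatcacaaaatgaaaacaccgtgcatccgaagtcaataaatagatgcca
The AP-1 letters TGACTCA began at base 9 of the transcript in the same window, and were found in 5.20% of all windows. The full palindromic oestrogen response element, its half-sites 3 bases apart, was in 0 of the 8 windows and in 0.07% of all. These matches describe letters in short windows only.

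Gpnmb (chromosome 6, 49036518 to 49058182) had 4.58, 5.10, 5.58 and 5.19 FPKM in control aortas 1 to 4 and 62.5, 43.1, 55.1 and 34.2 FPKM in knockouts 1 to 4. The controls lay within about 1 FPKM of each other, and every knockout was far above every control, with knockouts 1 and 3 the highest. The means were 5.11 ± 0.412 and 48.7 ± 12.5 FPKM, a log2 difference of 2.99 on the log2(FPKM + 1) scale (SE 0.17, limma adjusted p = 1.68e-05), the 8th largest rise among the 12107 tested genes. Within libraries 1 and 3 the difference was 3.30, and within libraries 2 and 4 it was 2.68. That gap of 0.62 on the log2 scale did not pass its own test (limma interaction term, adjusted p = 0.155, unadjusted p = 0.0108).

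Mlana (chromosome 19, 29697541 to 29708447) had 0.406, 0.779, 0.659 and 0.177 FPKM in control aortas 1 to 4 and 2.49, 1.45, 3.09 and 1.23 FPKM in knockouts 1 to 4. No knockout fell within the range of the controls, and knockouts 1 and 3 were again the highest. The mean rose from 0.505 ± 0.269 to 2.07 ± 0.879 FPKM (log2 difference 1.0, SE 0.22, limma adjusted p = 0.00865), the 233rd largest rise. The added 1 FPKM compresses a gene at this level: with 0.1 added in its place the difference was 1.88. Mlana met the 1 FPKM minimum only through the knockouts. Without that minimum it passed as well (limma adjusted p = 0.0142), in a fit of 18601 genes that called 11.3% of them higher. The difference was 1.31 within libraries 1 and 3, and within libraries 2 and 4 the call was lost (0.69, limma adjusted p = 0.0857). The gap of 0.62 between the sets did not pass (limma interaction term, adjusted p = 0.364).

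Gpnmb and Mlana also varied alike within groups. After each group's mean was subtracted, the Pearson correlation of their log2 values over the 8 libraries was 0.76, a description only, since the split by number enters it. The genes closest to Gpnmb by this measure were Cwf19l1, Hilpda, Sac3d1, 2310011J03Rik and Ppp1r14b (r from 0.987 to 0.993). Among the 12106 genes compared, 181 had an r above 0.9. Of the 5, Ppp1r14b, a protein phosphatase inhibitor, differed between genotypes (log2 difference 0.79, limma adjusted p = 0.00196). Closest to Mlana were Cachd1, Rcan1, Taf12, Mcl1 and Gadd45b (r from 0.968 to 0.977), none of which passed the test, and 95 genes had an r above 0.9.

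Pmel (chromosome 10, 128695888 to 128720238) had 0.147, 0.194, 0.205 and 0.145 FPKM in control aortas 1 to 4 and 0.347, 0.111, 0.229 and 0.195 FPKM in knockouts 1 to 4. The groups overlapped, with knockout 1 the highest and knockout 2 the lowest of all 8. The means were 0.173 ± 0.0312 and 0.220 ± 0.0981 FPKM (exact permutation test of log2(FPKM + 1), two-sided, p = 0.514, where 70 assignments allow no p under 0.0286). This test was run on the 4 markers under 1 FPKM, without adjustment. The exons of Pmel share 105 bases with Dgka on the opposite strand, which had 12.7 ± 2.15 FPKM in controls and 13.8 ± 0.833 FPKM in knockouts. Without a known strand setting, fragments from those bases cannot be told apart.

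The lowest FPKM values are spaced as whole fragments, which gave an estimate of what 1 fragment was worth in each library. By it the libraries held between 13400000 (knockout 1) and 42700000 (control 3) fragments, and 21 of 27 values of Mlana, Pmel, Dct, Tyrp1 and Trpm1 of at most about 10 fragments came within 0.1 of a whole fragment. These were 7 of 7 values of Pmel, 4 of 4 of Tyrp1, 5 of 7 of Dct, 4 of 6 of Trpm1 and 1 of 3 of Mlana. The fragment numbers of Mlana are therefore rougher. Pmel then rested on 5 to 17 fragments in a control and 5 to 10 in a knockout. Over each group that was 35 and 32 fragments, or 0.350 and 0.397 per 1000000. Mlana rested on 3 to 20 fragments in a control and 18 to 49 in a knockout, in all 38 and 115, or 0.380 and 1.43 per 1000000.

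Dct (dopachrome tautomerase, chromosome 14, 118012790 to 118052246), a pigment enzyme, had 0.0275, 0.0260, 0.0677 and 0.136 FPKM in control aortas 1 to 4. Its values were 0.0361, 0, 0.0214 and 0.0455 FPKM in knockouts 1 to 4. These come to an estimated 1, 1, 6 and 6 fragments in the controls and 1, 0, 1 and 2 in the knockouts. At least 3 fragments were seen in 2 controls and in 0 knockouts, and the groups overlapped (exact permutation p = 0.229).

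Tyrp1 (chromosome 4, 80834123 to 80851736), another enzyme of the tyrosinase family, was listed at 0 in controls 1 and 2 and in knockouts 1 and 2. It had 0.0276 and 0.0184 FPKM in controls 3 and 4 and 0.0522 and 0.0370 FPKM in knockouts 3 and 4, an estimated 3, 1, 3 and 2 fragments. A count of 0 allows up to 3 fragments, which in the 4 libraries at 0 correspond to between 0.0518 and 0.0906 FPKM, a range that reaches the level of the other libraries. Trpm1 (chromosome 7, 64153835 to 64269772), a cation channel gene of melanocytes and retina that hosts the microRNA gene Mir211, had 0.0417, 0, 0.00875 and 0.0511 FPKM in control aortas 1 to 4 and 0.0407, 0.0156, 0 and 0.0258 FPKM in knockouts 1 to 4. No library held more than about 3 fragments of it, and 1 library held at least 3, as 2 did for Tyrp1. Mir211 was listed at 0 in every library. The groups overlapped for Tyrp1 and Trpm1, and neither passed (exact permutation p = 0.543 and p = 0.771). At this depth Dct, Tyrp1 and Trpm1 were at or near the limit of detection in both genotypes, and a difference in them was not detectable.

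**Figure D2:**
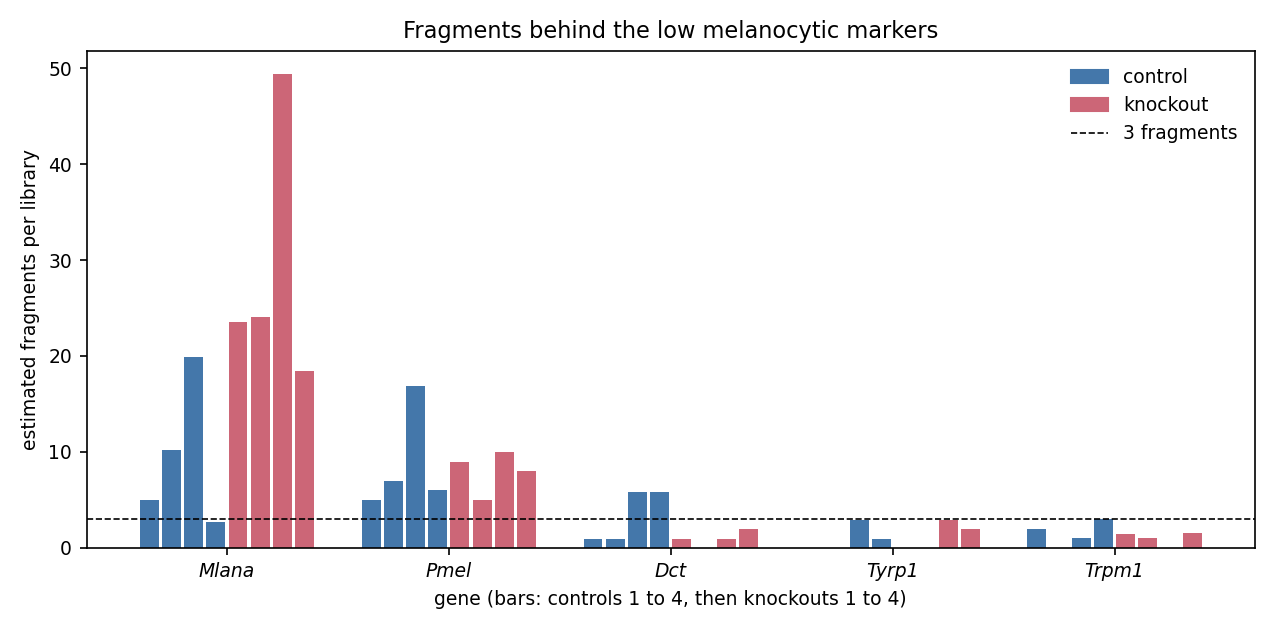
Estimated number of fragments (linear axis) behind the FPKM of the 5 lowest melanocytic markers in each library, controls 1 to 4 then knockouts 1 to 4, with a dashed line at 3 fragments. Mlana holds 18 to 49 fragments in the knockouts, Pmel 5 to 17 over both groups, and Dct, Tyrp1 and Trpm1 at most about 6.

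Esr1 (chromosome 10, 4611989 to 5005633), which encodes oestrogen receptor alpha, had 3.51, 2.92, 4.21 and 2.94 FPKM in control aortas 1 to 4 and 2.17, 2.84, 2.51 and 2.91 FPKM in knockouts 1 to 4. All knockouts lay below all controls, but the highest knockout and the lowest control were nearly equal. Groups without overlap made up 33.9% of all tested genes. The mean was 3.39 ± 0.608 FPKM in controls and 2.61 ± 0.339 FPKM in knockouts (log2 difference -0.28, 95% interval -0.54 to -0.02 before adjustment, limma adjusted p = 0.0969). Within libraries 1 and 3 alone the difference was -0.54 and passed (limma adjusted p = 0.0335). Within libraries 2 and 4 it was -0.02 (limma adjusted p = 0.883). The gap between the sets did not pass (limma interaction term, adjusted p = 0.151, unadjusted p = 0.00988).

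Pgr (chromosome 9, 8898900 to 8968611), the progesterone receptor gene and in many tissues a target of oestrogen receptor alpha, had 4.77, 3.61, 3.31 and 3.56 FPKM in control aortas 1 to 4 and 3.38, 3.58, 3.43 and 3.57 FPKM in knockouts 1 to 4. Control 1 was the highest, and the other 7 libraries lay between 3.31 and 3.61 FPKM. The means were 3.81 ± 0.652 and 3.49 ± 0.0999 FPKM (log2 difference -0.09, 95% interval -0.31 to 0.13, limma adjusted p = 0.502), and without control 1 the difference was -4.26e-04. It was -0.18 within libraries 1 and 3 and -0.0035 within libraries 2 and 4, and the gap between the sets did not pass (limma interaction term, adjusted p = 0.705). The within-group pattern of Esr1 was closest to those of Map1a, Oaz1-ps, Oat, Ran and Nup205 (r from 0.969 to 0.984). The genes closest to Pgr, Sowahc, Mir7036, Rbp7, Gnaq and Rnf168 (r from 0.942 to 0.993), all had their highest value in control 1, as Pgr did. Mir7036 had a mean of 66920 FPKM in controls and 0 in knockouts. Its difference was carried by control 1 and did not pass (log2 difference -4.51, limma adjusted p = 0.387). The correlation between Esr1 and Pgr by the same measure was 0.04.

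In controls the order of levels was Gpnmb, Pgr, Esr1, Mlana, Pmel, Dct, Trpm1 and Tyrp1, where the ranges of Gpnmb and Pgr, of Pgr and Esr1 and of Mlana and Pmel overlapped. In control 1 Pgr was above Gpnmb. In knockouts Tyrp1 and Trpm1 changed places and Mlana overlapped Esr1 in range. The 3 lowest genes overlapped one another in both groups.

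Among the MiT/TFE factors, Mitf, the master regulator of melanocytes, had 6.00, 6.20, 5.74 and 6.52 FPKM in control aortas 1 to 4 and 8.51, 7.07, 8.47 and 7.68 FPKM in knockouts 1 to 4. All knockouts were above all controls (log2 difference 0.33, SE 0.07, limma adjusted p = 0.00932). The difference was 0.47 within libraries 1 and 3, and the call was lost within libraries 2 and 4 (0.19, adjusted p = 0.166). Tfeb fell (log2 difference -0.43, limma adjusted p = 0.0376), a call lost in 8 of 16 alternatives, among them leaving out any 1 knockout, control 2 or control 4 (adjusted p 0.0570 to 0.0978 in the 8). It was -0.26 within libraries 1 and 3 and -0.60 within libraries 2 and 4. Tfe3 had 18.1 and 18.7 FPKM in the 2 groups and did not pass. Tfec, a family member of macrophages, was under 1 FPKM in every library (0.418 ± 0.161 and 0.380 ± 0.204 FPKM).

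Most other genes of the melanocyte lineage stayed low. Of 13 listed, 9 were under the minimum and 4 were tested. Limma called 0 of these 4 in either direction, also 0 at an unadjusted p under 0.05. Over all tested genes 32.2% were called, and 4 genes are too few to set against that share. The median log2 difference of the 4 was 0.05, beside 0.01 over all tested genes. Kit, the receptor tyrosine kinase of melanoblasts, had 1.27 ± 0.145 and 1.11 ± 0.206 FPKM, and Ednrb, an endothelin receptor, 1.83 ± 0.773 and 1.14 ± 0.159 FPKM. The other tested genes had higher means in the knockouts: Mreg with 1.37 ± 0.471 and 2.13 ± 1.02 FPKM, and Kitl with 7.49 ± 1.81 and 8.66 ± 1.28 FPKM. Tyr (tyrosinase, the rate-limiting pigment enzyme) had 0.401 ± 0.0701 FPKM in controls and 0.309 ± 0.0619 FPKM in knockouts, above Dct and Tyrp1 in every library. Sox10, a factor of melanocytes and Schwann cells, had 0.683 ± 0.127 and 0.507 ± 0.191 FPKM. The pigment transporter genes Oca2 and Slc45a2 were listed at 0 in 7 and 6 of the 8 libraries. Pax3, a factor of melanoblasts, was at 0.00736 to 0.0442 FPKM in the controls and listed at 0 in the 4 knockouts, with about 1 to 3 fragments per control. Gpr143, a melanosomal receptor gene and MITF target, was listed at 0 in all 4 controls and had 0.410, 0, 0.182 and 0.0323 FPKM in knockouts 1 to 4. Its highest values were again in knockouts 1 and 3. They rest on few fragments, about 7.6, 0, 5.7 and 1.0 in knockouts 1 to 4. It was under the minimum of the main fit, and no test of it is reported.

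Of 19 tested genes that build and move melanosomes and other lysosome-related organelles, 6 rose, 1 fell and 12 did not pass, 36.8% called, near the 32.2% of all tested genes, with a median log2 difference of 0.17. Mlph (melanophilin, which ties melanosomes to myosin Va) rose from 2.91 ± 1.13 to 9.66 ± 2.56 FPKM (log2 difference 1.46, limma adjusted p = 0.00171), by 2.06 within libraries 1 and 3 and by 0.87 within libraries 2 and 4. Dtnbp1 (dysbindin, 0.78) and Bloc1s3 (0.60), subunits of the BLOC-1 sorting complex, rose in all knockouts above all controls. Rab27a, the GTPase that recruits melanophilin, was the gene that fell, from 15.9 to 9.38 FPKM (-0.74, adjusted p = 0.00668; -0.98 within libraries 1 and 3 and -0.49 within libraries 2 and 4), and the motor gene Myo5a did not pass (3.04 and 3.19 FPKM).

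Of 7 genes that sort or cut the Pmel protein, 2 rose, 1 fell and 4 did not pass, 42.9% called beside 32.2% of all tested genes. Cd63, a tetraspanin that sorts Pmel in endosomes, rose from 346 ± 25.7 to 600.3 ± 21.7 FPKM (log2 difference 0.79). Apoe, the apolipoprotein on which Pmel fibrils form, rose from 392 ± 44.5 to 1118 ± 341 FPKM (1.46), with 1422 and 1404 FPKM in knockouts 1 and 3 and 838 and 807 FPKM in knockouts 2 and 4. Bace2, the protease that releases the fibril-forming part of Pmel, fell from 10.3 ± 2.09 to 6.37 ± 0.250 FPKM (-0.60, limma adjusted p = 0.00525), with -0.80 within libraries 1 and 3 and -0.39 within libraries 2 and 4. Of 6 tested genes for proteins reported to bind Gpnmb, 4 fell, 0 rose and 2 did not pass (0 rose at an unadjusted p under 0.05 in limma). Over all tested genes 15.0% fell and 32.2% were called. Itga5 (integrin alpha 5) fell from 202 to 85.7 FPKM (-1.24), Cd44 from 23.1 to 12.7 FPKM (-0.82), the heparan sulfate proteoglycan Sdc4 from 92.3 to 52.0 FPKM (-0.80) and Itgb1 (integrin beta 1) from 589 to 420 FPKM (-0.49, a call lost with quantile scaling at -0.28, adjusted p = 0.0981).

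**Figure D3:**
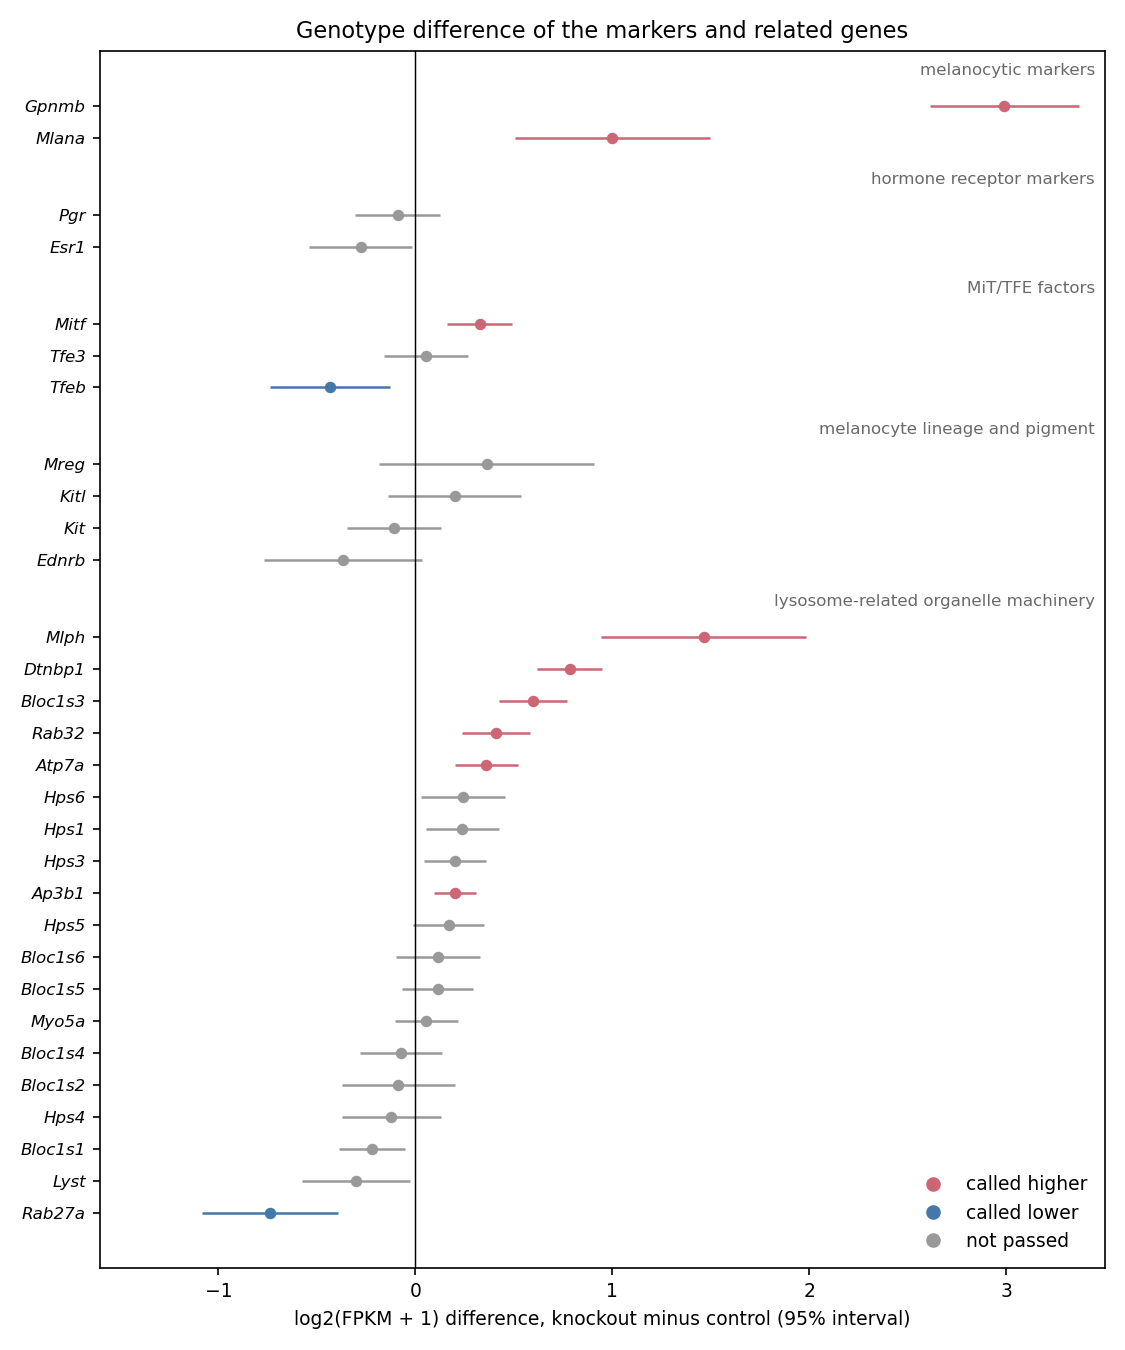
Log2(FPKM + 1) difference, knockout minus control, with its unadjusted 95% interval, for the tested markers and 3 related gene lists, colored by the limma call. Gpnmb (2.99) lies farthest to the right, followed by Mlph (1.46) and Mlana (1.0), and the intervals of Esr1 and Pgr lie around and just below 0.

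Other markers of the tumor cells split. Of 16 with a row, 11 were tested, of which 3 rose, 2 fell and 6 did not pass, 45.5% called beside 32.2% of all tested genes. Lgals3 (galectin-3) rose from 22.7 ± 6.03 to 56.4 ± 15.9 FPKM (log2 difference 1.27; 1.92 within libraries 1 and 3 and 0.62 within libraries 2 and 4) and Sqstm1 (p62, an autophagy receptor) from 223 ± 28.1 to 415 ± 19.8 FPKM (0.90). Pdgfrb, a called gene named outside the rule for named genes after its value was seen, rose from 90.9 to 142 FPKM with overlapping groups (0.68, limma adjusted p = 0.0321). Its call was lost without control 1, control 3, knockout 2, knockout 3 or knockout 4, and without a minimum level (adjusted p 0.0537 to 0.0828). Des (desmin) fell from 36.8 to 20.5 FPKM (-0.87; -1.40 within libraries 1 and 3 and -0.34 within libraries 2 and 4), and Plau (urokinase) had 4.56 and 1.90 FPKM with overlapping groups (-0.85, adjusted p = 0.0431), a call lost in 10 of 16 alternatives, including those without any 1 library except control 2 (adjusted p 0.0663 to 0.321 in the 10). Ctsk (cathepsin K, a diagnostic marker of these tumors) did not pass, with means of 14.7 ± 1.22 and 17.3 ± 2.29 FPKM and overlapping groups (0.22, limma adjusted p = 0.118). The lymphangiogenic factor genes Figf (VEGF-D, 26.0 ± 10.5 and 26.5 ± 9.16 FPKM) and Vegfc (3.67 and 3.85 FPKM) did not pass. Hoxa11, Hoxd10 and Hoxd11, homeobox genes of the uterus, were under 0.1 FPKM on average in both groups.

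Of the other steroid and related receptors, 7 were tested. Limma called 3 higher and 0 lower (1 lower at an unadjusted p under 0.05), and 4 did not pass. That is 42.9% called, beside 32.2% of all tested genes. The largest of the 3 rises is not reported here by name. Pgrmc2, a heme-binding membrane protein, rose by 0.19, with 0.25 within libraries 1 and 3 and no call within libraries 2 and 4 (0.13, adjusted p = 0.150), and its relative Pgrmc1 rose from 117 to 136 FPKM with overlapping groups (0.23, adjusted p = 0.0416). The Pgrmc1 call was lost in 9 of 16 alternatives (adjusted p 0.0518 to 0.101), including those without any 1 library except control 2 and knockout 1. Esr2 (oestrogen receptor beta) had at most 0.0362 FPKM in any library and was listed at 0 in 4 of 8.

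Partners and targets of the receptors were tested next. Of 15 tested chaperones and coregulators, limma called 0 higher (0 at an unadjusted p under 0.05) and 1 lower, the coactivator gene Ncoa3, from 30.0 to 24.0 FPKM (-0.31, adjusted p = 0.0152), a call lost within libraries 1 and 3 (-0.19, adjusted p = 0.182) and not within libraries 2 and 4 (-0.42). That is 6.67% called, beside 32.2% of all tested genes. Of 10 tested oestrogen response genes, 0 rose in limma (1 at an unadjusted p under 0.05) and 2 fell: Stc2 (stanniocalcin-2, -0.51, adjusted p = 0.0493) and the growth regulator Myc (-0.42, adjusted p = 0.0386), 20.0% called. The Stc2 call was lost in 11 of 16 alternatives, including those without any 1 library except knockout 2 (adjusted p 0.0509 to 0.294). The Myc call was lost in 7, among them leaving out control 2, control 3, knockout 1, knockout 2 or knockout 4 (adjusted p 0.0658 to 0.216). Greb1, an oestrogen-responsive gene, was under the minimum at 0.0224, 0.0634, 0.0460 and 0.0673 FPKM in control aortas 1 to 4 and 0.146, 0.101, 0.122 and 0.129 FPKM in knockouts 1 to 4. The groups did not overlap at these low levels, and no test of it is reported.

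Of 7 tested genes that make or inactivate oestrogen and progesterone, 4 rose and limma called 0 lower (0 at an unadjusted p under 0.05). That is 57.1% higher, beside 17.1% of all tested genes. All 4 encode hydroxysteroid 17-beta dehydrogenases, of which several act mainly on fatty acids or sterols. Hsd17b12, a fatty acid elongation enzyme, rose from 37.0 ± 4.17 to 65.6 ± 2.23 FPKM (log2 difference 0.82). Hsd17b11 (0.55), Hsd17b4, an enzyme of peroxisomal fatty acid oxidation (0.49), and Hsd17b7, of cholesterol synthesis (0.47), also rose, the last not within libraries 2 and 4 (0.44, adjusted p = 0.105, against 0.49 within libraries 1 and 3). Cyp19a1 (aromatase), Hsd3b1 and Hsd17b2 were listed at 0 in all 8 libraries.

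Markers of other cell types were set beside these results, since in bulk tissue more cells of a type and more RNA per cell cannot be told apart. Gpnmb is known from macrophages, and of 14 macrophage markers 1 was called higher, 0 fell (0 at an unadjusted p under 0.05 in limma) and 13 did not pass, none of them at 0 in all libraries. That is 7.14% called, beside 32.2% of all tested genes. Cd68 had 7.58 ± 0.604 and 7.61 ± 1.71 FPKM and Emr1 (F4/80) 3.35 ± 1.06 and 3.39 ± 0.789 FPKM. The summed level of the list ran from 271 to 385 FPKM in controls and from 232 to 319 FPKM in knockouts. Of 8 tested markers of lipid-associated macrophages and osteoclasts, Spp1 (3.90) and Lgals3 rose, Trem2, a lipid receptor of macrophages, fell (2.48 to 1.40 FPKM, adjusted p = 0.0415) and 5 did not pass. That is 37.5% called, near the 32.2% of all tested genes. The Trem2 call was lost in 9 of 16 alternatives, among them leaving out any 1 of controls 1 to 3 or of knockouts 1, 2 and 4 (adjusted p 0.0516 to 0.1004). That list summed to 536 to 661 FPKM in controls and 617 to 687 FPKM in knockouts. Most of it was Cd9, with 468 to 580 FPKM in controls and 456 to 529 FPKM in knockouts, which did not pass.

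Schwann cells share Sox10 with melanocytes, and of 5 tested markers of Schwann cells and neurons 3 fell, among them the myelin gene Mbp (2.54 to 1.56 FPKM), and 1 rose (Uchl1). Over all tested genes 15.0% fell and 17.1% rose. The Mbp call was lost in 7 of 16 alternatives, among them leaving out any 1 of the same 6 libraries (adjusted p 0.0562 to 0.112), and that of Uchl1 within libraries 1 and 3 (0.33, adjusted p = 0.176, against 0.47 within libraries 2 and 4). The list summed to 108 to 146 FPKM in controls and 142 to 169 FPKM in knockouts, most of it Uchl1. Of 8 smooth muscle markers 5 fell, beside 15.0% of all tested genes, and 0 rose (0 at an unadjusted p under 0.05 in limma). Their sums were 17580 to 17910 FPKM in controls and 11570 to 15490 FPKM in knockouts, most of it Acta2 and Tagln. The Acta2 call was lost in 8 of 16 alternatives (limma adjusted p 0.0568 to 0.52) and the Tagln call in 5 (0.0551 to 0.12). The Myh11 call was lost with quantile scaling (-0.47, limma adjusted p = 0.079). Of 8 endothelial markers 6 fell (median log2 difference -0.81), beside 15.0% of all tested genes, and 2 did not pass. Their sums were 199.8 to 283 FPKM in controls and 108 to 164 FPKM in knockouts. Of 8 fibroblast markers 4 fell (median -0.44), beside the same 15.0%, and 4 did not pass. Their sums were 1377 to 1698 FPKM in controls and 892 to 1249 FPKM in knockouts. The Dcn call was lost in 6 of 16 alternatives (limma adjusted p 0.0567 to 0.350). After subtraction of the group means, the mean log2 level of the smooth muscle markers had a correlation of -0.85 with Gpnmb and of -0.81 with Mlana over the 8 libraries. For the macrophage markers these were 0.61 and 0.70, and for those of lipid-associated macrophages and osteoclasts 0.72 and 0.70. Positive values were not particular to macrophages. They were 0.63 and 0.45 for fibroblasts, 0.43 and 0.66 for lymphatic endothelium and 0.40 and 0.58 for Schwann cells and neurons. The endothelial markers had -0.67 and -0.48, the fat cell markers -0.09 and 0.22 and the striated muscle markers 0.03 and -0.46. The 1 tested gene of T, B and NK cells had 0.14 and 0.56. These are descriptions in which the split by number takes part. The part of changes in cell makeup in the Gpnmb and Mlana results was not tested.

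**Figure D4:**
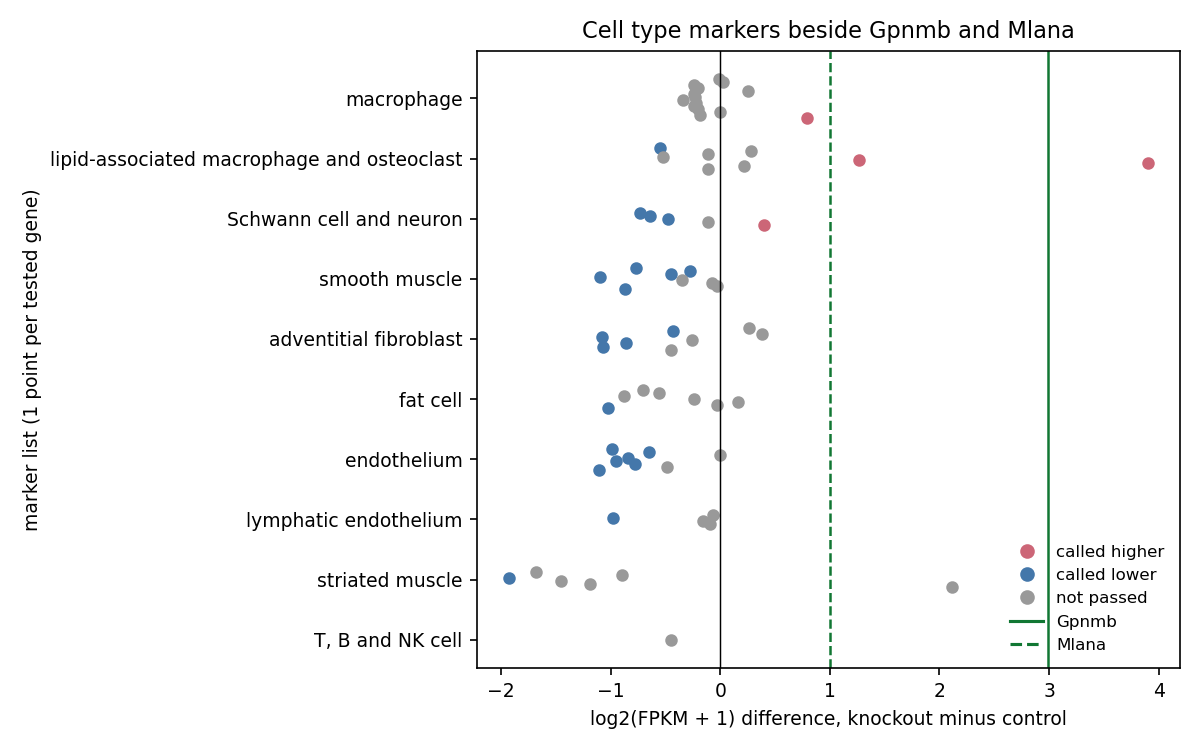
Log2(FPKM + 1) difference, knockout minus control, of each tested gene of 10 cell type marker lists (1 point per gene, colored by the limma call), with vertical lines at Gpnmb (2.99) and Mlana (1.0). Of the 14 macrophage markers 13 did not pass, and Spp1 (3.90) is the marker to the right of Gpnmb.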

How the data were processed

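RNA sequencing of 8 whole thoracic aortas was used. The deposited values are FPKM per gene and library. The submitters' processing notes list TopHat2, Cufflinks, Cuffdiff and mm10, with no version or role. Annotation, strand setting and between-library scaling: not given in the sources used here. The labels number the libraries 1 to 4 in each group and say nothing of pooling, and unless each is a separate animal the p-values reflect a spread that may be technical.

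Values were compared as log2(FPKM + 1), which understates changes at low levels. Of the 23993 genes, 12107 reached a mean of 1 FPKM and entered a two-sided limma fit (version 3.58.1, R 4.3.3, lmFit and eBayes with trend) with genotype as its single term and Benjamini-Hochberg adjustment over all of them. Markers under 1 FPKM were compared by exact permutation. The fit was tested on simulated data. The markers, the 10 lists of related genes, the 10 cell type lists and the tests were chosen with earlier results of these data known. Named related genes were up to 4 called genes of the largest difference in each list, low genes by level only, and for each tested marker the 5 genes of highest group-centred correlation. Other genes were named outside this rule. Among them were Pdgfrb, the low gene Greb1, and the uncalled genes Kit, Ednrb, Mreg, Kitl, Myo5a, Ctsk, Figf and Vegfc. Fragments per library (13400000 to 42700000) were estimated after seeing the data, from the most frequent lowest value of FPKM times length over genes with 1 transcript of at least 3000 bases, less an assumed fragment length of 200 bases (GENCODE vM21 lengths). They are approximate for genes with several transcripts, and limits from them cover counting error only. Same-numbered libraries were checked for pairing. The 16 alternatives were another pseudocount, no minimum, quantile scaling, library weights, the replicate number or its parity as a covariate, libraries 1 and 3 or 2 and 4 alone, and each library left out. Some called genes of these lists are counted but not reported here by name.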

Additional observations from a re-analysis of the deposited data

How the results depend on the processing

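The call of Gpnmb and the lack of a call for Pgr held in all 16 alternatives (log2 differences 2.68 to 3.30 and -0.18 to -4.26e-04). The Mlana call was lost within libraries 2 and 4 alone (0.69, limma adjusted p = 0.0857), leaving 1 marker called higher, and Esr1 was called lower within libraries 1 and 3 alone (-0.54, limma adjusted p = 0.0335), making 1 marker called lower. The cause was not tested. Leaving out each library gave 2.86 to 3.14 for Gpnmb, 0.85 to 1.14 for Mlana, -0.33 to -0.19 for Esr1 and -0.0186 to 0.0053 for Trpm1, whose difference of -0.0067 changed sign without control 1 (0.0010), control 4 (0.0053) or knockout 3 (0.0031). For Tfe3 (0.05) these fits gave -0.0046 to 0.121, with a change of sign without control 1 and within libraries 2 and 4 (-0.0376). Over all tested genes 1611 to 2636 were called higher (2074 in the fit as reported) and 1453 to 2353 lower (1819). Dct, Tyrp1 and Trpm1 are limited by depth: a few fragments per library allow no statement on changes of several-fold.

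With the replicate block the differences of Gpnmb (2.99, limma adjusted p = 4.95e-04), Mlana (1.0, adjusted p = 0.00746), Esr1 (-0.28, adjusted p = 0.131) and Pgr (-0.09, adjusted p = 0.483) kept their calls, and 2349 genes were called higher and 2122 lower. Deviations of same-numbered libraries correlated at 0.07, 0.14, 0.13 and 0.17 for numbers 1 to 4. Not every library correlated best with its own number: control 1 did so with knockout 3 (0.14) and control 3 with knockout 1 (0.15). Every pair of 1 control and 1 knockout that were both numbered 1 or 3, or both 2 or 4, correlated positively (0.02 to 0.17) and every other pair negatively (-0.19 to -0.05), so the 2 sets share a pattern across genotypes, while the single numbers were not taken as pairs.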
